A study of Mus musculus with 2 samples.

Results

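Genes of the fibroblast growth factor (FGF) axis were followed in primary mouse osteoblasts held in medium conditioned by human prostate cancer cells. The set held 10 genes, chosen as FGF receptors and ligands of bone with their Sprouty and Spred inhibitors, out of 18193 genes that the platform annotation tied to a probe set by a single symbol. All 27 probe sets annotated to these genes were used, out of 45101 on the array. They cover 3 receptor genes (Fgfr1, Fgfr2, Fgfr3), 3 ligand genes (Fgf2, Fgf7, Fgf18) and 4 inhibitor genes (Spry1, Spry2, Spry4, Spred1).

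The study asked how factors from prostate cancer lines of different kinds act on osteoblast transcripts. In both groups, osteoblasts in alpha-MEM, supplied with fetal calf serum (10%), were differentiated to day 10 with 50 µg/ml ascorbic acid and 10 mM beta-glycerophosphate. They were then kept overnight without serum and given tumour-cell medium for 6 hours. In the PC-3 group the medium came from PC-3 cells, a human line from a bone metastasis known for bone-destroying lesions, and in the MDA-PCa2b group from MDA-PCa2b cells, a bone metastasis line known for bone-forming lesions. Total RNA of each group was hybridised to 1 Affymetrix array, so the spread between cultures is unknown and the media could not be compared by a test. The sources used here give no strain, age or number of donor mice. Osteoblasts without tumour-cell medium were not analysed here, so a gene called "higher" or "lower" had that signal in the PC-3 group, set against the MDA-PCa2b group.

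FGFs bind receptor tyrosine kinases together with heparan sulfate chains, and the activated receptor signals through the adaptor Frs2 to Ras and the ERK kinases. ERK activity induces the Sprouty and Spred genes, whose proteins act back on the Ras-ERK chain, so their transcripts are often read as a trace of the pathway. In bone, Fgfr1 and Fgfr2 act in osteoblast precursors and osteoblasts, Fgfr3 is best known as a brake on growth-plate chondrocytes, and Fgf18 and Fgf2 are ligands with roles in osteoblast growth and maturation. Activating human mutations of FGFR2 cause craniosynostosis, in which skull sutures fuse early.

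Promoter windows of 3 members are shown because they carry the contrast among the results that follow: Fgfr2 and Spry1, the members whose signals were at least 1.5-fold lower, and Spry2, a close relative of Spry1 whose signal was not lower. Each window holds 250 bases before and 50 after the RefSeq start site on build GRCm38.p6, read on the gene's own strand, and the capitals mark CpG dinucleotides. The Fgfr2 window lies at chr7:130266759-130267058 on the minus strand, that of Spry1 at chr3:37639697-37639996 on the plus strand and that of Spry2 at chr14:105896770-105897069 on the minus strand.
Fgfr2: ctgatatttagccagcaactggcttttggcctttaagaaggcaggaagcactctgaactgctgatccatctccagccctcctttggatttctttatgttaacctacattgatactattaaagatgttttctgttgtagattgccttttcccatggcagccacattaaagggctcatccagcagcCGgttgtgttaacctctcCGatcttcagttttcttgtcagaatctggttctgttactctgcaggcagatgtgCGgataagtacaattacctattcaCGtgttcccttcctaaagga
Spry1: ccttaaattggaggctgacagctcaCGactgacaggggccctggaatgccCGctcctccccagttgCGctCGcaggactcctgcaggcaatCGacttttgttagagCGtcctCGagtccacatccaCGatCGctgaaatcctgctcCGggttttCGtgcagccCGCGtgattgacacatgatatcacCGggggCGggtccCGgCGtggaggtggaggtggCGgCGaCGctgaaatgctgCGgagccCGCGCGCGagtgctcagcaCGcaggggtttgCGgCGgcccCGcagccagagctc
Spry2: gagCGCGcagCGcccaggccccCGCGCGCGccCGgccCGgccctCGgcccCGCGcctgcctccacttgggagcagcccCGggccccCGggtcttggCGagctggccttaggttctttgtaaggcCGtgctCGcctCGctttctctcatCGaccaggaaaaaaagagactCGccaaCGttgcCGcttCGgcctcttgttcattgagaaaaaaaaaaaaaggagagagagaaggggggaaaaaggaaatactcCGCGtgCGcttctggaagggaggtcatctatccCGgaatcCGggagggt

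The Fgfr2 window held 4 CpG dinucleotides, against 29 for Spry1 and 28 for Spry2, and the median over all promoter windows of this length was 7. Its G and C content was 43.7%, against 64.3% for Spry1 and 62.7% for Spry2. Motifs were searched on both strands: the RUNX core TGTGGT, the AP-1 site TGANTCA, the GC box GGGCGG, a STAT site TTCNNNGAA, an ETS site CCGGAAG, the cAMP response element half-site TGACG and the TATA box TATAAA. The letters of the GC box were found 60 bases before the start site in the Spry1 window and in neither of the others; 35.7% of all promoter windows hold them. None of the other 6 motifs was found in these 3 windows. Their shares of all windows were 16.8% (RUNX), 7.81% (AP-1), 8.30% (STAT), 8.86% (ETS), 20.8% (cAMP) and 13.6% (TATA). A match or its lack describes these letters only. The 3 windows were picked by the signal ratios of their genes. The window of Fgf7, a gene with alike signals, held 11 CpG dinucleotides and 45.7% G and C. Windows of Fgf2, Fgfr3, Spred1 and Fgf18 held from 24 (Fgf2) to 47 (Fgf18) CpG dinucleotides, and each held the GC box. A link between window and signal was not tested.

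Signals are the authors' probe set intensities on a linear scale. A signal at or below the median of its own array (57.7 with PC-3 medium, 56.7 with MDA-PCa2b medium) was taken as at the floor, since no detection calls were used. Of the 10 genes, 7 were above the floor on both arrays, Fgf18 on the MDA-PCa2b array alone, and Fgf2 and Spry4 on neither. Of the 27 probe sets, 18 were above the floor on both arrays, 1 on a single array and 8 on neither. Below, a member is described by its brightest probe set, with the others beside it, and a level of a probe set is never set against that of another. Where a gene had several measured probe sets, their log2 ratios had an SD of 0.24 around the gene's mean (4921 genes). That SD was 0.30 for the dimmest tertile of probe sets and 0.18 for the brightest, and it holds scatter within a pair of arrays, not biological spread.

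**Figure D1:**
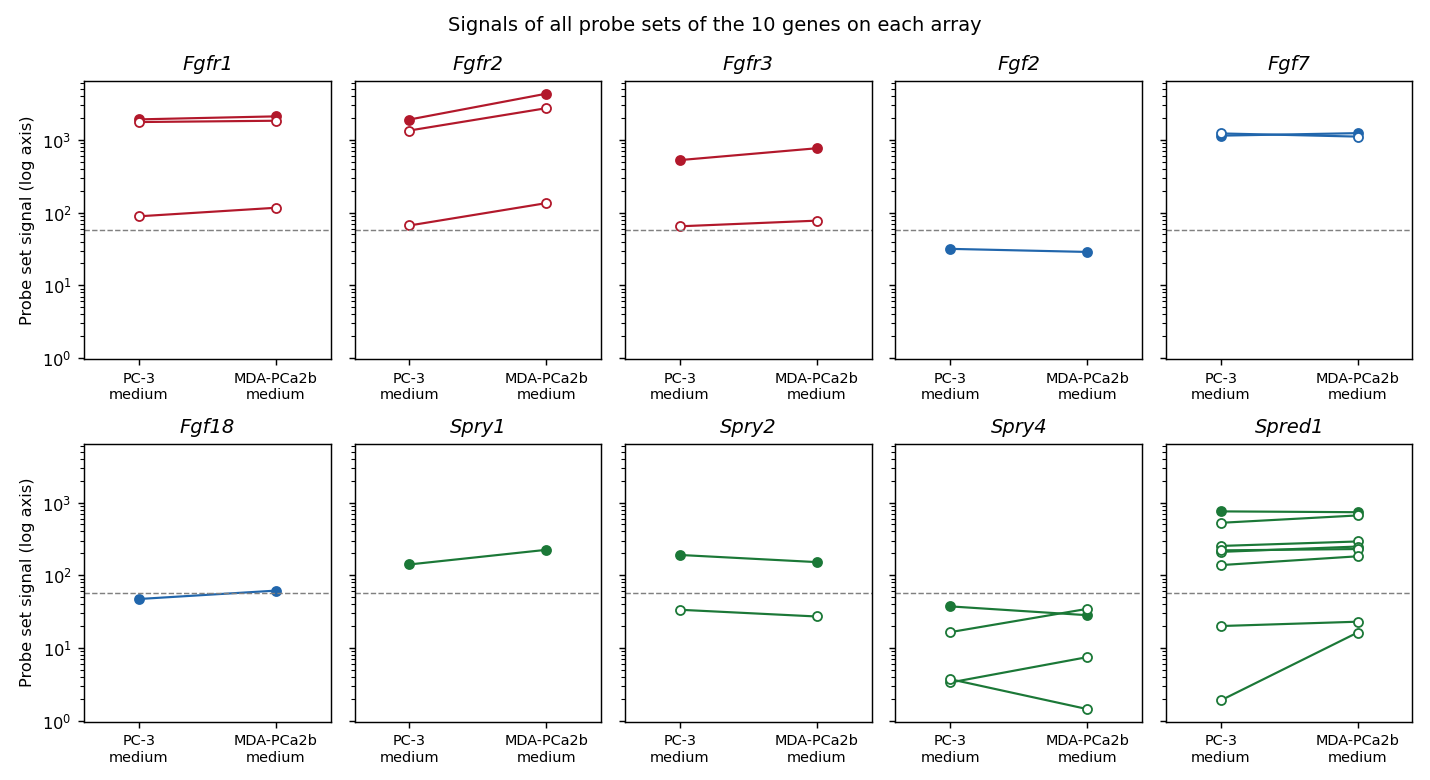
Signals of all 27 probe sets of the 10 genes (vertical log axis, linear signal units) with PC-3 medium, left, and MDA-PCa2b medium, right. Each line is a probe set, filled points are the brightest of each gene, and dashed lines are the floors of 57.7 and 56.7; all 3 lines of Fgfr2 are lower with PC-3 medium, and the 4 lines of Spry4 lie below the floor and run in both directions.

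Of the receptor genes, Fgfr2 had the lowest ratio, which was also the lowest of the measured members. Fgfr2, which encodes a receptor of osteoblast precursors, gave a signal of 1903 with PC-3 medium and 4314 with MDA-PCa2b medium, 2.27-fold lower (log2 ratio -1.18). Its second probe set gave 1344 with PC-3 medium and 2726 with MDA-PCa2b medium, 2.03-fold lower (log2 ratio -1.02). The remaining one gave 66.5 with PC-3 medium, not far above the floor, and 135 with MDA-PCa2b medium, again a log2 ratio of -1.02. All 3 probe sets of Fgfr2 were thus at least 2-fold lower, by amounts that differed from each other by less than the probe set SD. Of 1992 genes with at least 3 probe sets above the floor on both arrays, 7 had every one at least 2-fold lower (0.351%), and Fgfr2 was among them. This count was outside the planned results and was made for the lower direction only. By the brightest probe set, 129 of 11323 genes above the floor on at least 1 array had a ratio as low or lower (1.14%). In RNA of a whole culture, fewer Fgfr2-expressing cells and less Fgfr2 transcript per cell cannot be told apart.

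Fgfr3, which encodes the receptor that restrains growth-plate cartilage, gave 527 with PC-3 medium and 766 with MDA-PCa2b medium, 1.45-fold lower (log2 ratio -0.54). Its other probe set, near the floor, gave 64.8 with PC-3 medium and 77.5 with MDA-PCa2b medium (log2 ratio -0.26). Both were lower, the brighter by more than the scatter between probe sets and the dimmer by about its size; 7.71% of measured genes were as low as Fgfr3 or lower.

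Fgfr1, which encodes the main FGF receptor of mesenchymal cells, was nearly level. It gave 1912 with PC-3 medium and 2103 with MDA-PCa2b medium by the brightest probe set, and 1757 with PC-3 medium and 1831 with MDA-PCa2b medium by the next, log2 ratios of -0.14 and -0.06. The dimmest one gave 88.9 with PC-3 medium and 116 with MDA-PCa2b medium (log2 ratio -0.39). All 3 were lower; among genes with at least 3 such probe sets, 24.7% had every one lower. The receptor ratios therefore ran from 2.27-fold lower for Fgfr2 through 1.45-fold lower for Fgfr3 to 1.10-fold lower for Fgfr1. The gap between Fgfr2 and Fgfr3 (log2 ratios of -1.18 and -0.54) exceeded the probe set SD, and so did that between Fgfr3 and Fgfr1 (-0.54 and -0.14), for the brightest probe sets only. That SD describes single probe sets around their gene's mean, and a gap between probe sets would scatter more. Averaged over probe sets, Fgfr3 and Fgfr1 had log2 ratios of -0.40 and -0.20, a smaller gap than this SD. The dim probe sets of Fgfr3 and Fgfr1 were in the opposite order (-0.26 and -0.39).

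Of the ligand genes, only Fgf7 was above the floor on both arrays, and its signals with the 2 media were alike. Fgf7, which encodes keratinocyte growth factor, a product of stromal cells that acts on epithelium, gave 1142 with PC-3 medium and 1236 with MDA-PCa2b medium (log2 ratio -0.11). Its other probe set gave 1226 with PC-3 medium and 1108 with MDA-PCa2b medium (log2 ratio 0.15). The probe sets took opposite directions, each by less than the probe set SD.

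Fgf18, which encodes a ligand needed for skeletal growth, was listed at 47.2 with PC-3 medium, under the floor, and at 61.6 with MDA-PCa2b medium, barely over it. The ratio is a bound of at least 1.07-fold lower. Fgf2, the gene of basic FGF, was listed at 31.7 with PC-3 medium and 28.8 with MDA-PCa2b medium by its only probe set, under the floor on both arrays, so no ratio was given.

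The Sprouty genes encode membrane-anchored inhibitors of receptor signalling to Ras and ERK, and the 2 measured ones took opposite directions. Spry1 gave 141 with PC-3 medium and 224 with MDA-PCa2b medium, 1.59-fold lower (log2 ratio -0.67), by its only probe set; 4.86% of measured genes were as low or lower. Spry2 gave 190 with PC-3 medium and 152 with MDA-PCa2b medium, 1.25-fold higher (log2 ratio 0.33); 13.5% of measured genes were as high or higher. Both probe sets lie in the dimmest tertile, where the scatter had an SD of 0.30. The Spry1 ratio was larger than this SD, and that of Spry2 about as large as it. The second probe set of Spry2 was under the floor, listed at 33.6 with PC-3 medium and 27.1 with MDA-PCa2b medium.

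Spry4 was under the floor by all 4 of its probe sets. They were listed at 37.3, 16.5, 3.36 and 3.73 with PC-3 medium, and at 28.3, 34.5, 7.49 and 1.45 with MDA-PCa2b medium in the same order of probe sets. Of these, 2 were higher and 2 lower with PC-3 medium, and no ratio was given.

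Spred1, the gene of a Sprouty-related inhibitor that binds neurofibromin and brings it to Ras at the membrane, had 8 probe sets, of which 6 were above the floor on both arrays. The brightest gave 756 with PC-3 medium and 737 with MDA-PCa2b medium (log2 ratio 0.04). The other 5 were all lower, with log2 ratios from -0.40 to -0.06, and the next brightest gave 526 with PC-3 medium and 665 with MDA-PCa2b medium (log2 ratio -0.34). The mean over the 6 was -0.20, less than the probe set SD. The other 2 were under the floor on both arrays.

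**Figure D2:**
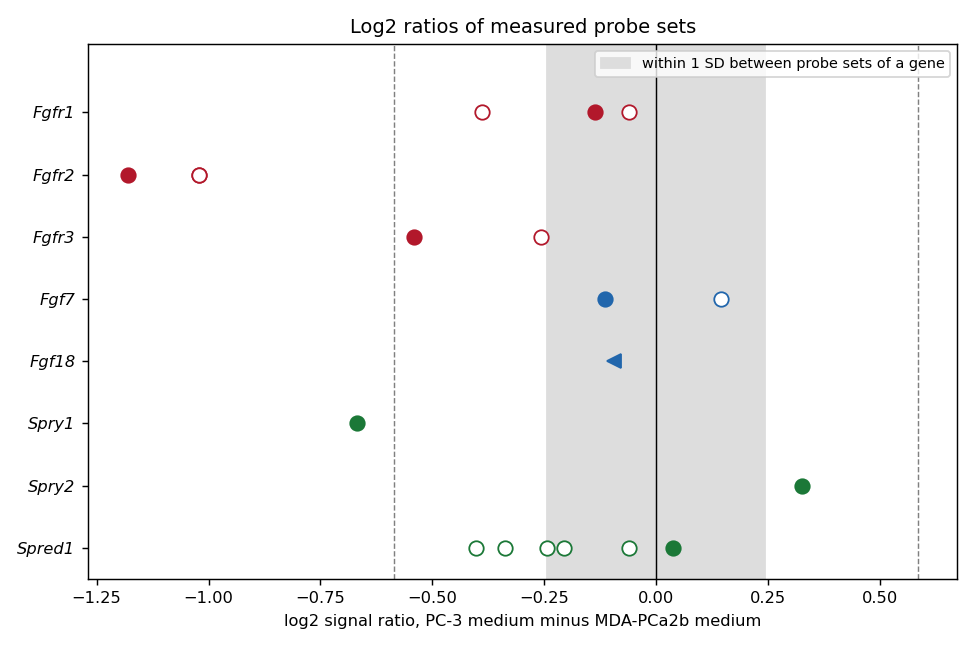
Log2 signal ratio (PC-3 medium minus MDA-PCa2b medium, horizontal axis) of each measured probe set of the 8 measured genes; filled symbols are the brightest probe set, open ones the others, and the triangle of Fgf18 is a bound. The grey band is 1 SD between probe sets of a gene (0.24) on either side of 0 and dashed lines mark 1.5-fold; only Fgfr2 (3 points, of which 2 overlap at -1.02) and Spry1 lie past them.

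By the brightest probe set, 2 of the 8 measured members were at least 1.5-fold lower, Fgfr2 and Spry1, and 0 were at least 1.5-fold higher. Over all measured genes these shares were 6.57% lower and 5.6% higher. At 2-fold, 1 member was lower (Fgfr2) and 0 were higher, against 1.85% and 2.12% of all measured genes. The members' median log2 ratio was -0.13, beside -0.04 over all measured genes. Of the 18 member probe sets above the floor on both arrays, 15 had a ratio below 0 (83.3%), beside 53.6% of 18773 named probe sets. Of the 15, 5 were probe sets of Spred1 and 8 were of receptor genes, so they are not independent of each other.

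The other FGF ligand genes were mostly under the floor. Of 19 such genes, 15 were at the floor on both arrays, among them Fgf8, Fgf10 and the phosphate-regulating hormone gene Fgf23. Fgf13, whose product acts inside the cell on sodium channels and microtubules, gave 105 with PC-3 medium and 180 with MDA-PCa2b medium, 1.71-fold lower. Fgf11, of the same intracellular subfamily, gave 97.8 with PC-3 medium and was under the floor with MDA-PCa2b medium, at least 1.72-fold higher. Fgf1 and Fgf9 were just over the floor with MDA-PCa2b medium alone, with bounds of at least 1.09-fold and 1.04-fold lower. With the floor at the 25th percentile, 14 of the 19 were measured, 5 at least 1.5-fold higher and 6 lower, mostly at signals under the floor used here. Over all genes measured with that floor, 10.6% were higher and 10.7% lower.

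Among other receptor and co-receptor genes, 3 of 8 measured were at least 1.5-fold lower and 0 were higher. For this list and those below, the shares over all measured genes were 6.57% lower and 5.6% higher. The median log2 ratio of the 8 was -0.31. Cdh2, the gene of N-cadherin, an adhesion protein that can bind Fgfr1, gave 771 with PC-3 medium and 2194 with MDA-PCa2b medium, 2.84-fold lower (log2 ratio -1.51, and -1.23 by the other probe set). Flrt3, which encodes a membrane protein that binds FGF receptors, gave 116 with PC-3 medium and 259 with MDA-PCa2b medium, 2.22-fold lower, with -1.28 by its second probe set. Its relative Flrt1 gave 137 with PC-3 medium and 221 with MDA-PCa2b medium, 1.62-fold lower, and its dim second probe set was a bound (log2 ratio -0.16). Fgfr4, close to the floor at 67.4 with PC-3 medium and 79.1 with MDA-PCa2b medium, had a log2 ratio of -0.23. Fgfrl1, which encodes a receptor lacking the kinase, had a log2 ratio of -0.38, beside 0.02 for a second probe set. Flrt2 gave 2952 with PC-3 medium and 3011 with MDA-PCa2b medium (log2 ratio -0.03, beside 0.21 and 0.43 for its other probe sets). Ncam1 had a log2 ratio of 0.03, with its other measured probe sets from -0.21 to 0.12. Both Flrt2 and Ncam1 were named after their values were seen. The klotho co-receptor genes Kl and Klb, used by hormone-like FGFs, were under the floor on both arrays.

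Heparan sulfate genes, which encode carriers of the chains and enzymes that build or modify them, were spread on both sides. Of 20 measured, 5 were at least 1.5-fold higher, against 1 lower, and the median log2 ratio of the 20 was 0.04. The syndecan gene Sdc4 gave 2875 with PC-3 medium and 673 with MDA-PCa2b medium, 4.27-fold higher; a dim second probe set gave 99.2 with PC-3 medium and 78.2 with MDA-PCa2b medium (0.34 on the log2 scale, beside 2.09, and the value without probe sets whose suffix marks several possible transcripts). The glypican gene Gpc3 was 1.71-fold higher and Ext1, which encodes a polymerase of the heparan sulfate chain, 1.61-fold higher. With the floor at the 75th percentile, Gpc3 was a bound of at least 0.15 on the log2 scale and no longer counted as 1.5-fold higher. Sdc1 (log2 ratio 0.68, beside 1.05, 0.84 and 1.28 for its other probe sets) and the sulfatase gene Sulf1 (0.68, beside 0.93) complete the count. Both were named after their values were seen. Hs3st3b1, a heparan sulfate sulfotransferase gene, gave 96.9 with PC-3 medium and 217 with MDA-PCa2b medium, 2.24-fold lower, with a bound of -0.38 (log2 ratio) by another probe set.

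Of 17 measured adaptor and Ras-ERK chain genes, 1 was at least 1.5-fold higher and 0 were lower, and the median log2 ratio was 0.04. By the brightest probe set, ratios of the rest ran from -0.19 (Gab1) to a bound of at least 0.54 on the log2 scale (Frs3). Dimmer probe sets of some of these genes lay below that range, among them those of Rps6ka3 (-0.55 and a bound of -0.66) and Sos1 (-0.47). No measured probe set of these genes lay above it. The genes in brackets were named after their values were seen. Ksr1, which encodes an ERK pathway scaffold, was the higher gene, with 335 in PC-3 medium and 126 in MDA-PCa2b medium, 2.66-fold higher (log2 ratio 1.41, beside 0.66 and 1.18 for the other probe sets). With the floor at the 75th percentile, Ksr1 was a bound of at least 0.16 on the log2 scale and no longer counted as 1.5-fold higher. A further 7 genes of this list, among them Frs2, had no probe set with a single gene name here.

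Of 12 measured feedback inhibitor genes other than the members, 3 were at least 1.5-fold higher against 2 lower (median log2 ratio -0.14). Il17rd, whose product Sef blocks FGF signalling at the membrane, gave 118 with PC-3 medium and 243 with MDA-PCa2b medium, 2.05-fold lower. Dusp6, the gene of an ERK phosphatase that FGF induces, gave 176 with PC-3 medium and 269 with MDA-PCa2b medium, 1.53-fold lower, and was named after its values were seen. It was no longer 1.5-fold lower with log2(signal + 16) or with the median ratio of all genes set to 0 (log2 ratio -0.57 in each). Lrig1, which encodes an inhibitor of EGF-family receptors, was 2.38-fold higher, although its dimmest probe set was a bound on the other side (log2 ratio -0.22), and so was the gene without probe sets whose suffix marks several possible transcripts. Errfi1, the gene of a further EGF receptor inhibitor, was 1.66-fold higher, and the ERK phosphatase gene Dusp5 at least 1.81-fold higher. Spred2 and Spred3, the relatives of Spred1, had log2 ratios of -0.17 each; another probe set of Spred2 gave 182 with PC-3 medium and 139 with MDA-PCa2b medium (0.39 on the log2 scale). Spry3 was under the floor on both arrays.

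ERK response genes shared with other growth factors also went both ways, with 5 of 15 measured at least 1.5-fold higher, 3 lower, and a median log2 ratio of 0.06. The transcription factor genes Fosl1 and Jun were 3.39-fold and 2.60-fold higher, Ier3 3.13-fold and Phlda1 2.68-fold; the second probe set of Fosl1 was under the floor with MDA-PCa2b medium and gave a bound of at least 1.19-fold higher. Ets1 (log2 ratio 0.68, beside 0.54 and a bound of 0.59 for other probe sets) was the fifth. Myc (-1.04), the cyclin gene Ccnd1 (-0.69, beside -1.11 and -0.80 for its other probe sets) and Fos (-0.61) were the lower ones. These 4 were named after their values were seen. Fos was no longer 1.5-fold lower with the median ratio of all genes set to 0 (-0.57). Etv5, an ETS factor gene that FGF signalling induces, gave 184 with PC-3 medium and 234 with MDA-PCa2b medium (log2 ratio -0.35), and its relative Etv4 was under the floor on both arrays.

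**Figure D3:**
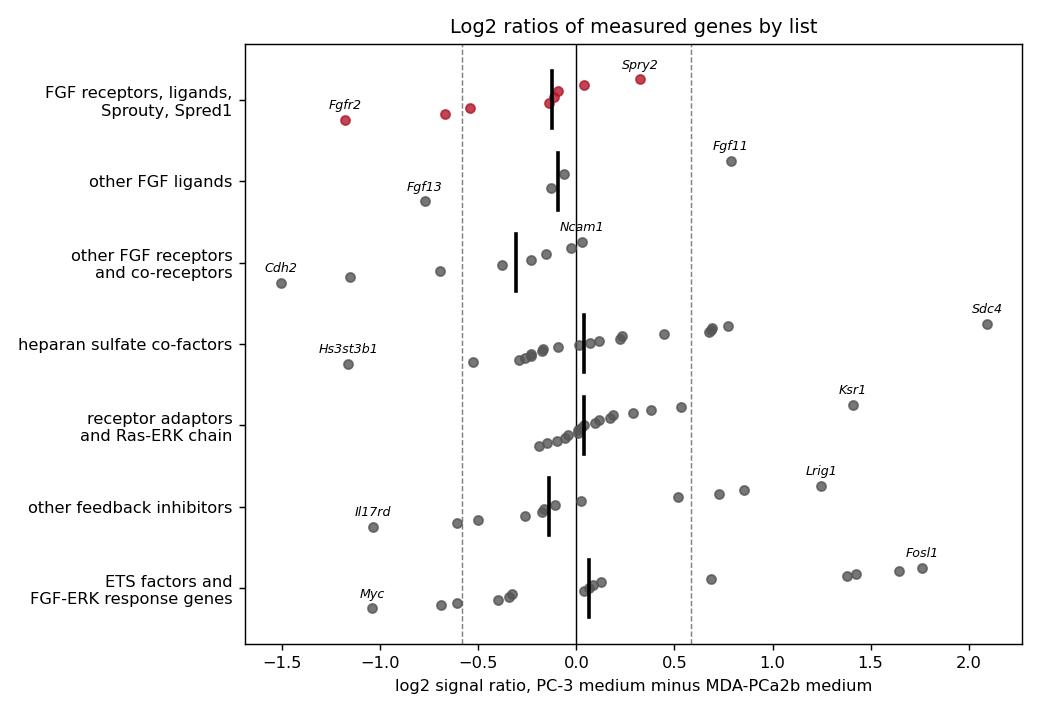
Log2 signal ratio (PC-3 medium minus MDA-PCa2b medium, horizontal axis) of measured genes in the member set, red, and 6 lists of other pathway genes, grey, each point a gene by its brightest probe set or its bound, with black bars for medians and dashed lines at 1.5-fold. Receptors and co-receptors reach down to Cdh2 (-1.51) with none past 1.5-fold higher, while the other 5 grey lists reach past 1.5-fold on the higher side, up to Sdc4 (2.09).

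Markers of the cell types such a culture can hold were read beside these results. All 8 osteoblast markers on the array by a single symbol exceeded the floor. By the brightest probe set their log2 ratios were all below 0, with a median of -0.11, beside -0.04 over all measured genes. Of all named probe sets above the floor on both arrays, 53.6% were below 0. The lowest osteoblast markers were the factor genes Dlx5 (-1.32) and Sp7 (-0.68), while Col1a1 (-0.004), Sparc (-0.02) and Col1a2 (-0.02) were nearly level. Other probe sets of Sparc were above 0 (0.03 and 0.33), and those of Col1a1, Col1a2 and Ibsp below 0. The summed signal of the osteoblast markers was 88102 with PC-3 medium and 92167 with MDA-PCa2b medium. It is carried by very bright genes such as Sparc and Col1a1, near the top of the signal range. Chondrocyte markers were above the floor for 9 of 10 genes, all but Matn3, with sums of 14670 for PC-3 medium and 16019 for MDA-PCa2b medium; their median log2 ratio was -0.18. Of these 9, 2 were at least 1.5-fold lower, Col10a1 (-1.39) and Hapln1 (-0.83), and none was higher by as much. Over all measured genes these shares were 6.57% lower and 5.6% higher. Acan (-0.48), Sox9 (-0.22) and Comp (-0.18) were lower by less than 1.5-fold. The others, Col2a1 (-0.10), Col9a1 (-0.02), Col11a2 (0.02) and Matn1 (0.14), were nearly level. The part of the osteoblast and chondrocyte marker shifts in the Fgfr2 and Fgfr3 ratios was not tested. Macrophage and osteoclast markers were above the floor for 8 of 9 genes, all but Calcr, with sums of 22150 for PC-3 medium and 21966 for MDA-PCa2b medium. These sums too are carried by bright genes, here Lyz2 and Ctsk. The median log2 ratio of this list was 0.05, with 5 genes above 0 and 3 below. Cd68 (0.59) was its only gene at least 1.5-fold different, and Acp5 (0.45) came next. All 8 endothelial markers were under the floor on both arrays, with sums of 109 for PC-3 medium and 141 for MDA-PCa2b medium, as were 6 of 8 skeletal muscle markers and 3 of 5 adipocyte markers. The adipocyte markers summed to 685 with PC-3 medium and 385 with MDA-PCa2b medium, and the muscle markers to 216 with PC-3 medium and 224 with MDA-PCa2b medium. The 2 measured adipocyte markers were both higher, with a median log2 ratio of 0.72. They were Fabp4 (0.98, beside 0.78 for its other measured probe set) and Adipoq (0.47). The arrays had equal trimmed means of 300.002, which scaling each array to a common value would give, so this equality is no measure of their likeness. For beta-actin the ratio of 3' to 5' signal, a sign of RNA integrity, was 1.504 with PC-3 medium and 1.399 with MDA-PCa2b medium. For Gapdh this ratio was 0.722 with PC-3 medium and 0.734 with MDA-PCa2b medium.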

How the data were processed

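Total RNA (5 µg) of each group was labelled with biotin and hybridised to 1 array, per the labels' protocols. The authors deposited a linear intensity for each probe set; the submitters' processing notes name GCOS 1.4 and MAS5. The sources used here give no scaling target, background settings or detection calls. The number of arrays limits the precision. Groups came from the source description; a prefix of the other line's name stands in the PC-3 sample's title. No columns of sample values were left out. Of 45101 probe sets, 34958 had 1 gene symbol, 932 several and 9211 were not listed; none was named from several, and the 64 control probe sets were kept out of the genes.

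Signals were floored at the 50th percentile of their array and log2 was taken. The ratio was PC-3 medium minus MDA-PCa2b medium, by the probe set of highest mean signal; with 1 array at the floor it was a bound, with both it was not given. Members and lists were chosen with earlier results of these data known. Named were all members and, in each list, up to 4 genes at least 1.5-fold different with the largest ratios, or the 2 largest where none was; every other Fgf, Fgfr, Spry and Spred gene could be named by its status. Other genes, marker and family genes named by level included, are named for their role or after their values were seen. Promoter sequences are RefSeq's (GRCm38.p6). Alternatives were other floors, log2(signal + 16), quantile normalisation, centring, averaging probe sets, leaving out probe sets with suffixes _a, _s, _x and _f, and a 2-fold threshold. Scripts ran under Python 3.11.15, numpy 2.4.6 and pandas 2.3.3 and were tested on simulated data.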

Additional observations from a re-analysis of the deposited data

How the results depend on the processing

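Fgfr2 kept a log2 ratio between -1.18 and -1.02, Fgfr3 between -0.54 and -0.40 and Spry1 between -0.67 and -0.61 under each alternative that measured them; with the floor at the 75th percentile Spry1, Spry2 and Fgf18 were not measured. That floor left fewer genes measured, and 1 of 5 measured members at least 1.5-fold lower (2 of 8 in the main setting). Of 54 other pathway genes measured with it, 9 were higher and 4 lower (15 and 10 of 76 in the main setting). Over all genes measured with it, 4.42% were higher and 3.81% lower. With a 2-fold threshold 1 of 8 members was lower, and of 76 other pathway genes 7 were higher and 5 lower. Over all measured genes 2.12% were 2-fold higher and 1.85% lower. The floor at the 25th percentile gave log2 ratios of 0.14 for Fgf2, 0.40 for Spry4 and -0.38 for Fgf18, with 5 other FGF ligand genes higher and 6 lower (1 and 1 in the main setting) and 10.6% of all genes higher and 10.7% lower. Log2(signal + 16) gave 0.09 for Fgf2 and 0.27 for Spry4, with 5 other FGF ligand genes higher and 4 lower. It left 1 other feedback inhibitor lower (2), with 8.76% of all genes higher and 9.01% lower. Without probe sets whose suffix marks several possible transcripts, Fgfr1 was read from its dimmest one (-0.39), Sdc4 had 0.34 (2.09 in the main setting) and Lrig1 a bound of -0.22 (1.25). With probe sets averaged, Fgf7 (0.02) and Spred1 (-0.20) changed sign within the probe set SD. Setting the median ratio of all genes to 0 put 6.46% of genes higher and 5.71% lower, against 5.60% and 6.57% in the main setting, and left 1 other feedback inhibitor lower. Counts of members at least 1.5-fold higher were 0 in every alternative. No paired analysis was possible because each group had 1 array. Signals near the floor (Fgf18, Fgfr4 and the dim probe sets of Fgfr2 and Fgfr3) limit the ratios, and without replicates no difference can be set against the spread between cultures.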
